A study of Rattus norvegicus with 16 samples.

Results

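Translation initiation and elongation factors are the proteins that bring the ribosome to a messenger RNA, find its start codon and move the ribosome along the coding sequence. The genes described here are those whose symbol in the deposited tables starts with Eif and a digit, or with Eef1 or Eef2, with 1 row per symbol (the row with the highest mean) and rows that name several genes left aside. There are 60 such genes among 16638 symbols in all, of which 57 are in the CA1 table and 60 in the table of white blood cells (WBC). The symbols also take in genes that act on the factors, such as the eIF2 kinases, the eIF4E-binding proteins and the kinase of eEF2. Among them are also Eef1e1, known as a part of the aminoacyl-tRNA synthetase complex, and Eif2c2 and Eif2c3, older symbols of Ago2 and Ago3, whose products bind small RNAs and are not initiation factors.

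In initiation, eIF2 carries the initiator tRNA to the small ribosomal subunit, eIF4F binds the cap of the messenger RNA and unwinds its leader, and eIF3 holds the assembly together. Kinases that phosphorylate eIF2 lower initiation under stress, and eIF4E-binding proteins do so when mTOR is inactive. In elongation, eEF1A delivers each aminoacyl-tRNA and eEF2 moves the ribosome to the next codon, a step that eEF2 kinase slows. In neurons this control is known for its part in synaptic plasticity and memory, and in red cell precursors the heme-regulated kinase Eif2ak1 is known to match globin synthesis to heme.

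The study used male Sprague-Dawley rats of 200 to 240 g, whose age the labels do not give. Rats received traumatic brain injury (TBI) by fluid percussion, a pressure pulse onto the brain, or sham surgery, and tissue was taken 1 week later, after a test of learning. Poly-A RNA was sequenced in 16 libraries: 4 of WBC after TBI, 4 of WBC after sham surgery, 4 of the hippocampal field CA1 after TBI and 4 of CA1 after sham surgery. The comparison asked how injury changes transcription in blood and hippocampus. The labels do not say whether each library is 1 rat or whether equal numbers in the 2 tissues are the same rat, so p-values measure the spread between these samples, which may be technical. Both tissues are mixtures of cells, and the labels name no sort of a single cell type.

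Values are FPKM, fragments per kilobase of transcript scaled to library size, which are per length and can be set beside each other between genes. They carry no fragment counts, so the depth behind each value is unknown. Summed FPKM ran from 482286 to 832725 over the WBC libraries, with TBI 1 the lowest, and from 1726843 to 3520669 over the CA1 libraries. Pearson's r between libraries across rows was 0.910 to 0.968 in WBC and 0.967 to 0.981 in CA1. In CA1 the 6 markers of excitatory neurons summed to 4694 to 5164 FPKM in TBI and 4394 to 6381 FPKM in sham, while all 6 markers of natural killer cells and all 4 of B cells averaged under 1 FPKM. In WBC the T cell markers summed to 568 to 855 FPKM in TBI and 594 to 818 FPKM in sham, and the 6 excitatory neuron markers to 8.59 to 17.7 FPKM in TBI and 6.86 to 11.7 FPKM in sham. Values of the 4 libraries of a group are given in the order of their numbers, and differences between groups are log2 (FPKM + 0.5) in TBI minus sham, a scale that understates the change of low genes.

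Several factors exist as pairs of paralogues, and the ratio of their levels differed between blood and hippocampus in 4 of the 5 pairs measured in both. eEF1A is encoded by Eef1a1, expressed in most tissues, and Eef1a2, known from neurons and muscle. Of the eEF1A total, Eef1a2 made up 0.354 to 0.951% in WBC after TBI and 0.222 to 0.289% in WBC after sham surgery, and 79.5 to 80.9% in CA1 after TBI and 78.7 to 83.1% in CA1 after sham surgery. The log2 ratio of 2 genes is taken within a library on FPKM + 0.5. For genes far above 0.5 FPKM the scaling of a library thus largely cancels, though each table has its own transcript models. In WBC this does not hold for Eef1a2 (mean 1.02 FPKM in TBI and 0.556 FPKM in sham) or Eif5a2 (1.24 FPKM in TBI and 1.43 FPKM in sham). There the added 0.5 FPKM raises the ratio.

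The start sites of 3 such pairs, and those of the kinase Eif2ak1 and the exchange factor subunit Eef1b2, are shown as examples. They include all 4 genes found below to have TATAA, so they do not stand for the 60 genes. Each line gives 40 bases before the annotated start and the first 20 bases of the transcript, 5′ to 3′, from RefSeq on GRCr8. Capitals mark TATAA in the 40 bases before the start on the gene's own strand, a C followed by at least 4 bases that are C or T and starting within 2 bases of the start, and GATAA or its complement TTATC before the start.
Eef1a1 (chr8:88225050-88225109, minus strand): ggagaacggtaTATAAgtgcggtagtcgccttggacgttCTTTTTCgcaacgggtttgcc
Eef1a2 (chr3:188652614-188652673, minus strand): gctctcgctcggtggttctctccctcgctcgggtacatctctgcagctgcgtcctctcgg
Eif1 (chr10:85747097-85747156, plus strand): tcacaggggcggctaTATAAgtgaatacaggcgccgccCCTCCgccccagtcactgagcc
Eif1b (chr8:129081118-129081177, plus strand): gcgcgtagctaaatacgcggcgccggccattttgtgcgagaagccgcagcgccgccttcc
Eif4a1 (chr10:54888583-54888642, minus strand): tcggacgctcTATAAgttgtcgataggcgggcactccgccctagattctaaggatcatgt
Eif4a2 (chr11:91275304-91275363, minus strand): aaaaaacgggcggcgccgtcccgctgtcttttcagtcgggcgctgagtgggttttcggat
Eif2ak1 (chr12:15858145-15858204, minus strand): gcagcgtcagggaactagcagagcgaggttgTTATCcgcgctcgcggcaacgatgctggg
Eef1b2 (chr9:72074051-72074110, plus strand): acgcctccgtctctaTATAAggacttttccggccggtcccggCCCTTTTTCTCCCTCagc

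In each pair the first named gene (Eef1a1, Eif1, Eif4a1) had TATAA in this window and its paralogue (Eef1a2, Eif1b, Eif4a2) did not. Promoter sequences were found for 53 of the 60 genes, 3 of them through an older symbol. TATAA stood in this window in 4 of the 53 (Eef1a1, Eef1b2, Eif1 and Eif4a1), or 7.55%, and in 3.26% of all 33469 promoters. The pyrimidine run at the start, the form that begins the messenger RNAs of ribosomal proteins, was found in 6 of the 53 (11.3%) and in 8.57% of all promoters, and was 7 bases in Eef1a1 and 15 bases in Eef1b2. GATAA on either strand within 250 bases before the start was found in 4 of the 53 (Eif2ak1, Eef2k, Eif2s3x and Eif4g2; 7.55%) and in 23.5% of all promoters. These are matches of letters and not tests of binding.

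The log2 ratio of Eef1a2 to Eef1a1 was -7.13, -7.14, -6.39 and -7.06 in WBC after TBI and -7.55, -7.55, -7.81 and -7.71 in WBC after sham surgery. It was 2.08, 1.95, 2.07 and 1.96 in CA1 after TBI and 2.29, 1.94, 2.04 and 1.88 in CA1 after sham surgery. All WBC libraries lay far below all CA1 libraries, and within WBC every TBI library lay above every sham library, with TBI 3 the highest. Eef1a2 itself was near the floor in WBC, at 0.494, 0.788, 2.01 and 0.804 FPKM in TBI, against 0.594, 0.515, 0.497 and 0.617 FPKM in sham, under the minimum mean for a test. Its groups overlapped, with TBI 1 the lowest, while Eef1a1, the lower part of the ratio, averaged 176 FPKM in TBI and 213 FPKM in sham. The separation of the ratio thus does not show a change of Eef1a2 alone. TBI 3 also had the highest scores, as mean log2 distances from the sham average, for markers of excitatory neurons (0.78) and astrocytes (0.80) among the WBC libraries. Of these, 3 of 6 neuron markers and 3 of 4 astrocyte markers averaged under 1 FPKM in WBC, and their part in the Eef1a2 value was not tested.

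The helicase eIF4A is encoded by Eif4a1 and Eif4a2, and the log2 ratio of Eif4a2 to Eif4a1 was 1.01 to 1.31 in WBC after TBI and 1.144 to 1.353 in WBC after sham surgery. In CA1 it was 2.27 to 2.40 after TBI and 2.12 to 2.52 after sham surgery. Eif4a2 thus exceeded Eif4a1 in all 16 libraries, and the tissues did not overlap. For Eif1b over Eif1, paralogues of the factor that guards start codon choice, the log2 ratio was -2.78 to -2.01 in WBC after TBI and -3.16 to -2.74 in WBC after sham surgery, against -0.26 to 0.11 in CA1 after TBI and -0.20 to 0.03 in CA1 after sham surgery. The tissues again did not overlap. Eif5a2 over Eif5a, which helps ribosomes through difficult sequences, stood at -6.94 to -6.48 in WBC after TBI, -6.87 to -6.50 in WBC after sham surgery, -3.25 to -3.07 in CA1 after TBI and -3.33 to -2.80 in CA1 after sham surgery. The ratio of the translation inhibitors Eif4ebp2 and Eif4ebp1 lay close to 0 in both tissues, from -0.33 to 0.50, and its ranges overlapped. No TBI and sham ranges separated in CA1 for any of the 5 pairs. Eif4e3 over Eif4e could be formed only in WBC, at -1.32 to -0.44 after TBI and -0.55 to -0.47 after sham surgery, since the CA1 table joins Eif4e3 with Foxp1 in 1 row. Eif4g1 had no row under its symbol in either tissue, so its pair with Eif4g3 is not given.

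**Figure D1:**
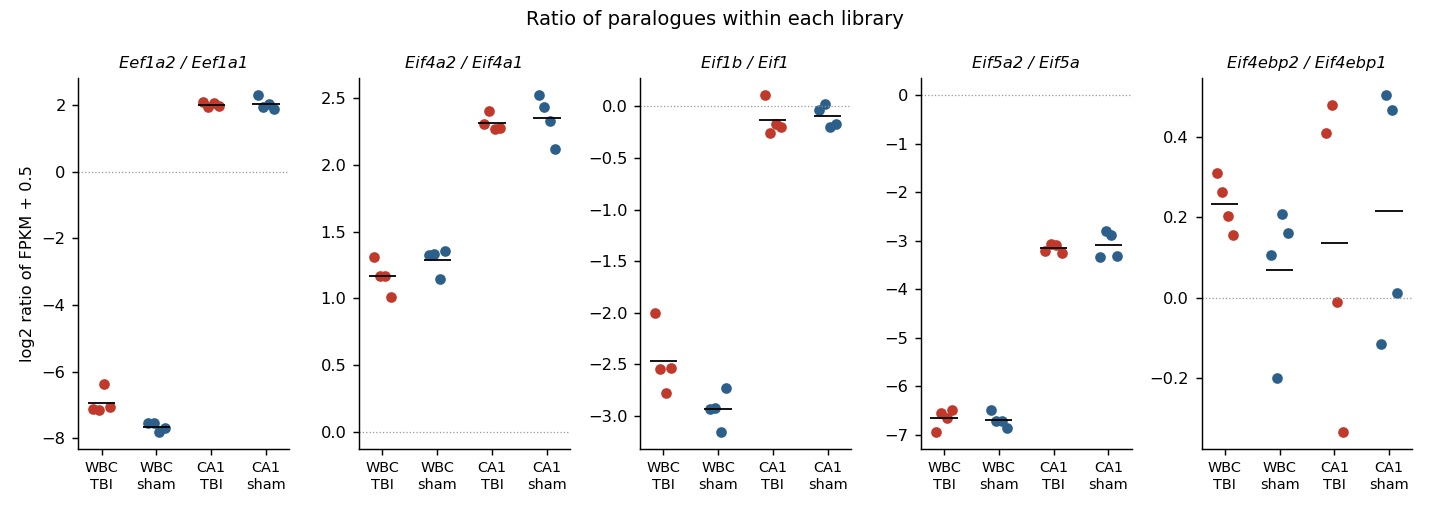
Log2 ratio of FPKM + 0.5 of paralogues within each library (vertical axis), for 5 pairs and the 4 groups. Points are libraries and lines are group means. The WBC libraries lie below the CA1 libraries for Eef1a2 over Eef1a1, Eif4a2 over Eif4a1, Eif1b over Eif1 and Eif5a2 over Eif5a, and overlap them for Eif4ebp2 over Eif4ebp1.

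Levels of the factors spanned a wide range within a tissue. In WBC the most abundant was Eef2 at 651 ± 67.6 FPKM in TBI and 721 ± 59.9 FPKM in sham (SD, n = 4 each). Next came Eef1a1 at 176 ± 28.9 FPKM in TBI and 213 ± 19.6 FPKM in sham (SD, n = 4 each), Eif1 at 172 ± 32.2 FPKM in TBI and 230.0 ± 17.0 FPKM in sham (SD, n = 4 each) and Eif5a at 174 ± 3.10 FPKM in TBI and 199 ± 20.8 FPKM in sham (SD, n = 4 each), whose ranges overlapped in both groups. In CA1 the order was Eef1a2 (451 ± 9.52 FPKM in TBI and 461 ± 22.9 FPKM in sham (SD, n = 4 each)), Eef2 (398 FPKM in TBI and 399 FPKM in sham), Eif4a2 (358 FPKM in TBI and 357 FPKM in sham) and Eif5a (212 FPKM in TBI and 206 FPKM in sham), and the ranges of these 4 did not overlap in either group. Levels are set across the tissues only as a description, because the library scaling behind each table is not known here. The row of Eif5b, the factor that joins the ribosomal subunits, averaged 0.159 FPKM in TBI and 0.162 FPKM in sham in WBC and 0.315 FPKM in TBI and 0.261 FPKM in sham in CA1, and was not tested in either tissue. Many of these genes have copies: RefSeq lists 120 pseudogenes named after 32 of the 60, with 20 for Eef1a1, 16 for Eef1g, 11 for Eif5, 10 for Eif4e and 8 each for Eif1 and Eif4a1, so their fragments may be shared. Eif2ak1 and Eif3j have none by that name, and Eef1e1 has 2.

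WBC, TBI against sham: whether translation factors in the blood differ after brain injury. No translation factor passed in limma (adjusted p under 0.05), but 42 of the 57 tested were lower after TBI and 15 higher. The farthest apart were Eef1e1, Eif2ak1, Eef2k and Eif2c2, at 0.455, 0.494, 0.575 and 0.581 times the sham level. These folds are taken back from the mean log2 difference and are not ratios of the group means. The subunits of eIF2, the eIF4A helicases and Eef1b2 lay within 0.12 of no difference on the log2 scale (0.26 for Eif4a1 and for Eif4a2 after quantile normalization). The median of the 57 was -0.12 on the log2 scale, against -0.0031 over all 13413 rows tested, and it became 0.07 (36 of 57 higher) after quantile normalization, where the median of all rows was 0.05.

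Of all rows, 49.6% were higher after TBI in the mean. At an unadjusted p under 0.05, limma gave 11 members lower, 19.3% of the 57, against 12.5% of all rows, and 1 higher (Eif3e), 1.75% against 7.82% (20.3% of all rows in either direction). Groups did not overlap in 8 members, all lower, which is 14% of the members, against 8.63% of all rows lower, 5.61% higher and 14.2% either way. None of the 13413 rows passed the adjusted threshold in either direction, 0% of all rows. With a minimum mean of 5 FPKM the counts were again 11 lower and 1 higher. The 56 members left had a median of -0.11, against -0.031 over 8794 rows. Of these rows 2033 were past an unadjusted p of 0.05, and 31.6% of the 2033 were higher, against 38.5% in the main fit. The background of abundant rows was thus itself lower than that of all rows. After quantile normalization the counts at an unadjusted p under 0.05 were 5 lower and 7 higher, and without sham 3 they were 7 lower and 1 higher. TBI 1 was the lowest of the 8 libraries for 30 of the 57 members, and without it the median was -0.07. The lowest library was not counted over all rows, so this count is not particular to the members. TBI 1 also had the lowest summed FPKM in WBC (482286). In mixed cells, fewer cells of a type and less RNA per cell cannot be told apart.

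Of the 4 kinases of eIF2, 3 were lower and 1 higher, and 2 and 2 after quantile normalization. Eif2ak1, which senses heme in red cell precursors, had 32.8, 60.3, 58.6 and 38.7 FPKM in TBI, against 86.1, 91.8, 117 and 83.6 FPKM in sham. Every TBI library lay below every sham library, with TBI 1 and TBI 4 the lowest. The difference was -1.02 ± 0.21 (SE), with a 95% interval of -1.504 to -0.53 and limma adjusted p = 0.127. The double-stranded RNA kinase Eif2ak2 had 7.66, 10.7, 6.501 and 7.82 FPKM in TBI, against 8.75, 13.5, 7.001 and 9.75 FPKM in sham. The endoplasmic reticulum stress kinase Eif2ak3 had 22.3, 22.2, 18.6 and 16.9 FPKM in TBI, against 19.7, 21.6, 19.0 and 22.1 FPKM in sham. The amino acid sensor Eif2ak4 had 10.6, 8.79, 7.18 and 6.25 FPKM in TBI, against 6.94, 7.51, 5.998 and 7.57 FPKM in sham. In these 3 kinases the groups overlapped, and the differences were -0.23, -0.05 (0.02 after quantile normalization) and 0.19 (limma adjusted p = 0.586, 0.840 and 0.534).

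All 7 genes tested whose symbols start with Eef1 or Eef2 were lower in WBC after TBI, where 49.6% of all rows were higher. They include Eef1e1 and Eef2k, which are not elongation factors themselves. After quantile normalization these 2 were lower and the other 5 higher. Eef1e1, of the tRNA synthetase complex, had 42.9, 93.7, 97.7 and 65.4 FPKM in TBI, against 135, 188, 200.4 and 119 FPKM in sham. The groups did not overlap, TBI 1 was lowest, and the difference was -1.13 ± 0.28 (SE) (95% interval -1.79 to -0.48, limma adjusted p = 0.132). Eef2k, the kinase that inhibits eEF2, had 8.86, 25.2, 16.1 and 17.99 FPKM in TBI, against 22.5, 33.6, 36.2 and 22.9 FPKM in sham. Sham 1 and sham 4 lay below TBI 2, so the groups overlapped, and the difference was -0.80 ± 0.30 (SE) (limma adjusted p = 0.195), or -0.53 without TBI 1. Eef1a1 had 139, 182, 209 and 174 FPKM in TBI, against 205, 189, 223 and 233 FPKM in sham. Its difference of -0.28 ± 0.14 (SE) (limma adjusted p = 0.285) turned to 0.09 after quantile normalization. Eef2 had 550.3, 696, 675 and 682 FPKM in TBI, against 703, 666, 806 and 708 FPKM in sham, where TBI 1 stood apart from the other 3 TBI libraries. Its difference of -0.15 ± 0.13 (SE) (limma adjusted p = 0.569) turned to 0.32 after quantile normalization. Of the exchange factor subunits that reload eEF1A, Eef1b2, Eef1d and Eef1g differed by -0.02, -0.24 and -0.13, with overlapping groups.

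In the cap-binding group the genes with the smallest p were Eif4b, which assists the helicase, Eif4e2, a cap-binding protein that represses translation, and the inhibitor Eif4ebp1. Eif4b had 86.7, 114, 116 and 125 FPKM in TBI, against 139, 157, 136 and 140.1 FPKM in sham. Eif4e2 had 61.4, 86.1, 88.4 and 76.2 FPKM in TBI, against 84.3, 121, 106 and 98.4 FPKM in sham. Eif4ebp1 had 35.0, 42.6, 41.9 and 42.9 FPKM in TBI, against 50.9, 56.5, 44.1 and 48.2 FPKM in sham. The groups did not overlap for Eif4b and Eif4ebp1, and for Eif4e2 TBI 2 and TBI 3 lay above sham 1. The differences were -0.38 ± 0.12 (SE), -0.39 ± 0.15 (SE) and -0.29 ± 0.10 (SE), with limma adjusted p = 0.155, 0.195 and 0.172. After quantile normalization they were -0.10, -0.13 and -0.15.

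The cap-binding protein Eif4e had 12.8, 12.5, 13.7 and 14.4 FPKM in TBI, against 13.2, 12.7, 12.2 and 13.7 FPKM in sham. The helicase Eif4a1 had 40.6, 43.8, 44.5 and 48.2 FPKM in TBI, against 39.0, 36.6, 45.4 and 42.1 FPKM in sham. Eif4a2 had 101, 98.97, 101 and 97.8 FPKM in TBI, against 98.2, 92.8, 101 and 108 FPKM in sham. These 3 core components had overlapping groups, with 95% intervals of -0.13 to 0.20, -0.08 to 0.32 and -0.17 to 0.16 for the log2 difference (limma adjusted p = 0.821, 0.488 and 0.984), and Eif4a2 went to 0.26 after quantile normalization. The second inhibitor, Eif4ebp2, had 43.5, 51.2, 48.3 and 47.8 FPKM in TBI, against 54.8, 49.1, 51.1 and 54.0 FPKM in sham, a difference of -0.13 (limma adjusted p = 0.362) that became 0.04 after quantile normalization. Of the scaffolds, Eif4g2 and Eif4g3 differed by -0.14 and -0.30, and of the others Eif4e3 by -0.25, Eif4h by -0.12 and Eif4a3, of the exon junction complex, by 0.04. Eif4enif1, which moves eIF4E into the nucleus, differed by 0.05.

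**Figure D2:**
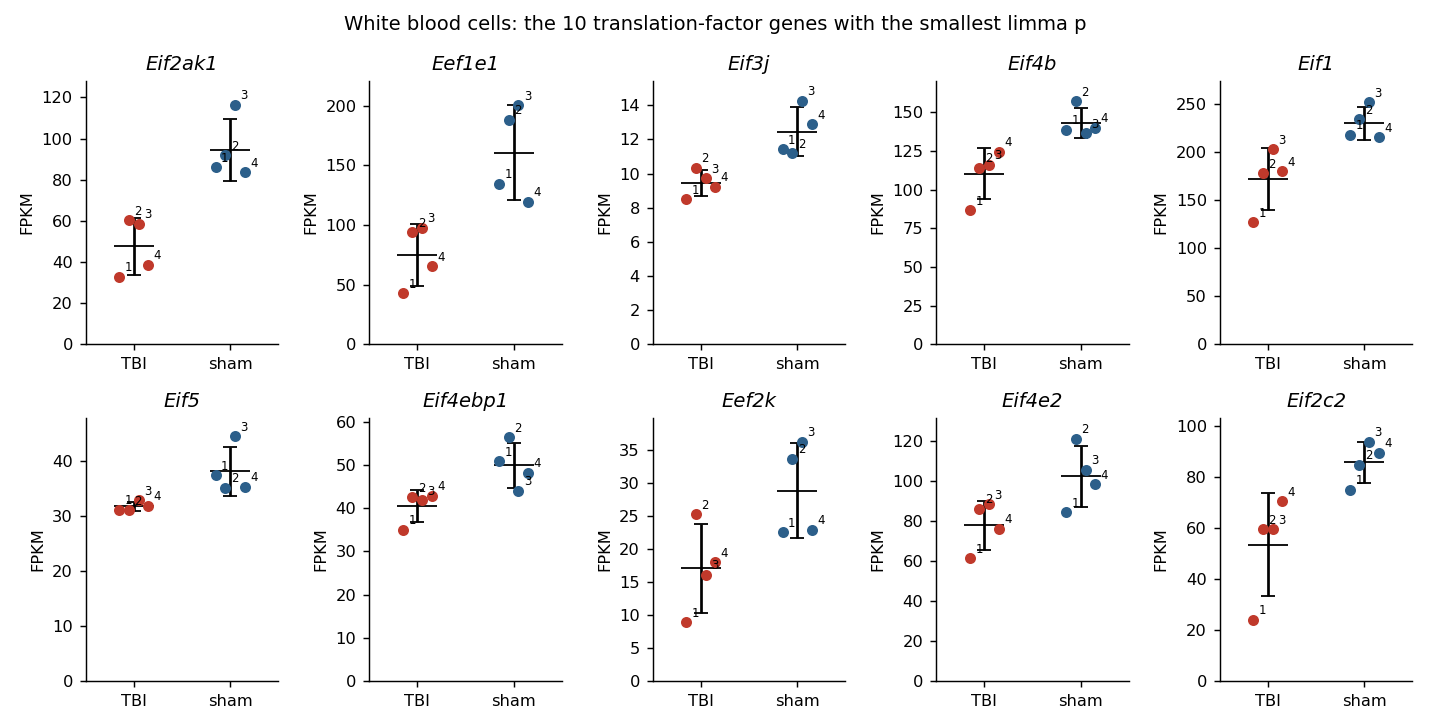
FPKM of the 10 translation-factor genes with the smallest limma p in WBC, TBI left and sham right. Points are libraries with their numbers, and the black bars are the mean and SD of 4. The 4 TBI libraries lie below the 4 sham libraries in all but Eef2k and Eif4e2.

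Among genes of start codon selection, Eif1, which guards start codon choice, had 127, 178, 203 and 180.2 FPKM in TBI, against 218, 234, 252 and 215 FPKM in sham. Eif5, which triggers GTP hydrolysis by eIF2 at the start codon, had 31.2, 31.0, 32.9 and 31.9 FPKM in TBI, against 37.5, 35.2, 44.5 and 35.3 FPKM in sham. In both genes the groups did not overlap, and the 4 TBI libraries of Eif5 lay close together. The differences were -0.43 ± 0.15 (SE) and -0.25 ± 0.09 (SE), with limma adjusted p = 0.168 and 0.169, and -0.09 and -0.12 after quantile normalization. The scanning factors Eif1a and Eif1ax differed by 0.03 and -0.21, Eif1b by 0.04 and Eif1ad by 0.06.

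The 10 genes of eIF2, eIF2B and initiator tRNA delivery split 5 higher and 5 lower, and 7 and 3 after quantile normalization. The alpha subunit of eIF2, Eif2s1, the target of the 4 kinases, had 22.1, 24.6, 23.6 and 24.95 FPKM in TBI, against 22.5, 22.4, 25.2 and 23.0 FPKM in sham. The groups overlapped, and the 95% interval of the log2 difference was -0.13 to 0.19 (limma adjusted p = 0.844). Eif2s2 and Eif2s3x differed by -0.04 and -0.11. Of the 5 subunits of eIF2B, which reloads eIF2 with GTP, Eif2b3 differed by -0.26, at 6.75 ± 0.649 FPKM in TBI and 8.18 ± 0.847 FPKM in sham (SD, n = 4 each), with overlapping groups (limma adjusted p = 0.207), and the other 4 by -0.09 (Eif2b2) to 0.07 (Eif2b1). Eif2a and Eif2d, which can deliver initiator tRNA without eIF2, differed by 0.11 and -0.16.

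Of 13 eIF3 subunits, 11 were lower and 2 higher, with a median of -0.06, while after quantile normalization 10 were higher and 3 lower, with a median of 0.12. Eif3j, a loosely bound subunit, had 8.51, 10.4, 9.73 and 9.24 FPKM in TBI, against 11.4, 11.2, 14.3 and 12.9 FPKM in sham. Its groups did not overlap, and the difference was -0.38 ± 0.10 (SE) (limma adjusted p = 0.138), between -0.39 and -0.35 under the other settings on all 8 libraries. Eif3e had 11.3, 11.7, 12.3 and 17.3 FPKM in TBI, against 8.68, 9.90, 12.1 and 10.001 FPKM in sham, with TBI 4 the highest and overlapping groups (0.35 ± 0.15 (SE), limma adjusted p = 0.244). RefSeq uses the symbol Eif3e also as an older name of a pseudogene, so the identity of this row is less certain. The other subunits ran from -0.20 (Eif3c) to 0.03 (Eif3s6ip, an older symbol of Eif3l). Eif5a, which must carry the modified lysine hypusine to work, had 171, 173, 173 and 178 FPKM in TBI, against 203, 176, 225 and 193 FPKM in sham, a difference of -0.19 (limma adjusted p = 0.289) that turned to 0.18 after quantile normalization. Eif6, which keeps free large subunits apart from small ones, and Eif5a2 differed by -0.05 and -0.15.

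Eif2c2 (Ago2), the small RNA binding protein, had 24.0, 59.4, 59.4 and 70.4 FPKM in TBI, against 74.9, 84.8, 93.7 and 89.5 FPKM in sham. The groups did not overlap, and TBI 1 lay far below the other 3 TBI libraries. The difference was -0.78 ± 0.31 (SE) (limma adjusted p = 0.204), and -0.44 without TBI 1. Eif2c3 averaged 0.827 FPKM in TBI and 0.737 FPKM in sham and was not tested.

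**Figure D3:**
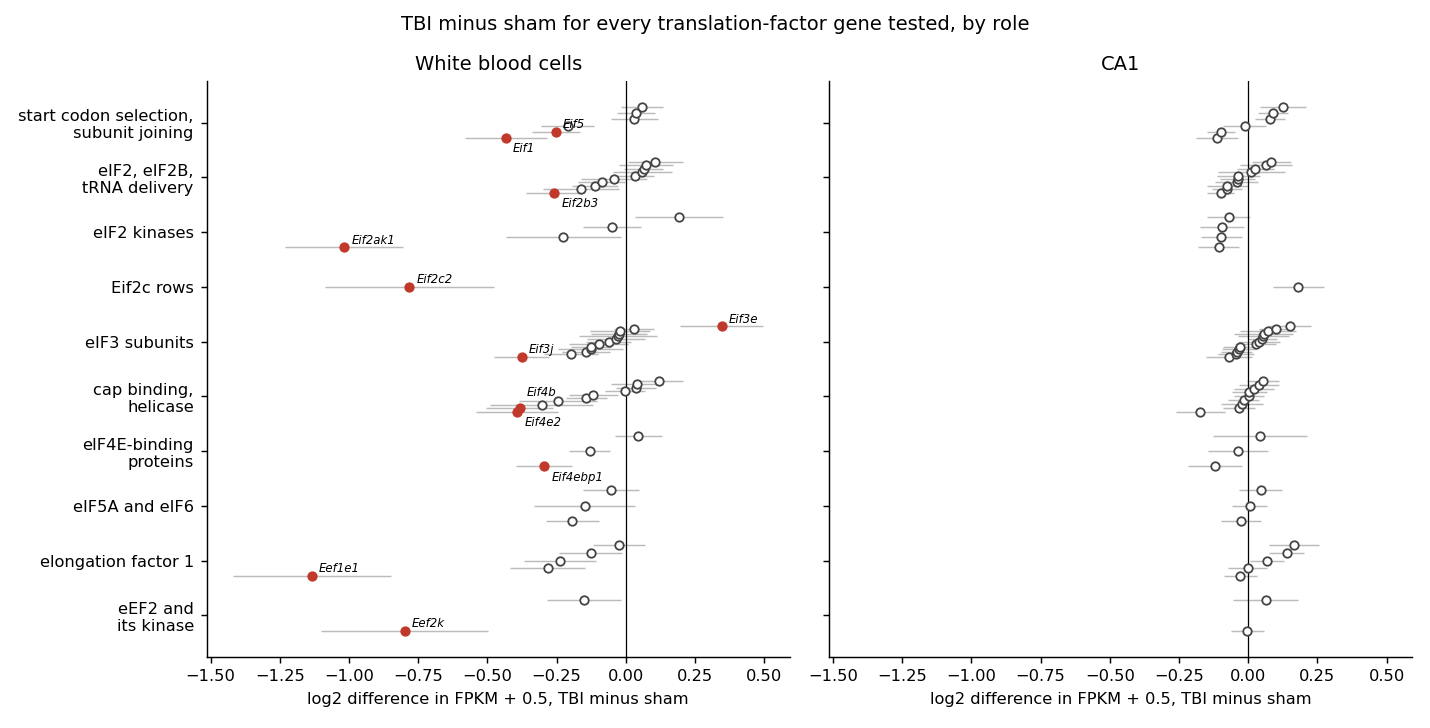
Log2 difference of FPKM + 0.5, TBI minus sham (horizontal axis), for every translation-factor gene tested in WBC (57, left) and CA1 (56, right), by role. Bars are standard errors, and filled points have an unadjusted limma p under 0.05. Such points are seen in WBC, 11 lower and 1 higher, and in CA1 there are 0.

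Markers of red cells and platelets were also lower in WBC after TBI. Of 14 red cell and reticulocyte markers, 12 were found, all 12 were lower, none averaged under 1 FPKM, and they summed to 4815 to 11718 FPKM in TBI and 11951 to 18813 FPKM in sham. As the mean log2 distance from the sham average, the red cell score was -1.82, -0.63, -0.62 and -1.12 in TBI, against -0.21, 0.28, 0.08 and -0.16 in sham. The order of the TBI libraries on this score, with TBI 1 lowest, then TBI 4, then TBI 2 and TBI 3 close together, was also their order for Eif2ak1 and Eef1e1. In sham the 2 libraries with the higher score, 2 and 3, were also those with the higher Eif2ak1 and Eef1e1. Other genes followed it only in part. TBI 1 was also the lowest TBI library for Eef2k, Eif2c2, Eif4b and Eif4ebp1, and sham 2 and sham 3 were the highest sham libraries for Eef2k. But Eef2k was higher in TBI 4 than in TBI 3, and TBI 4 was the highest TBI library for Eif2c2, Eif4b and Eif4ebp1. Eif4a2 did not follow the order of the score. All 5 platelet markers found of 8 were lower, with sums of 1977 to 5756 FPKM in TBI and 6253 to 8614 FPKM in sham. Their score also had TBI 1 lowest, then TBI 4, TBI 2 and TBI 3 (-2.13, -1.08, -1.04 and -0.59). The summed FPKM of these libraries had that order too (482286, 612627, 650424 and 832725). Among the sham libraries, sham 3 was the lowest in both (-0.21 and 727296). The order of the TBI libraries was thus not particular to the red cell score. All 6 markers of natural killer cells were higher, with overlapping sums of 176 to 318 FPKM in TBI and 152 to 210 FPKM in sham. All 5 neutrophil markers were lower in the mean, with overlapping sums (364 to 1212 FPKM in TBI and 659 to 1069 FPKM in sham). All 4 B cell markers found of 5 were lower, with a median of -0.20, overlapping sums of 399.5 to 755 FPKM in TBI and 620.05 to 816 FPKM in sham, and the lowest score, -0.77, in TBI 4. The part of these cell types in the differences of the translation factors was not tested.

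**Figure D4:**
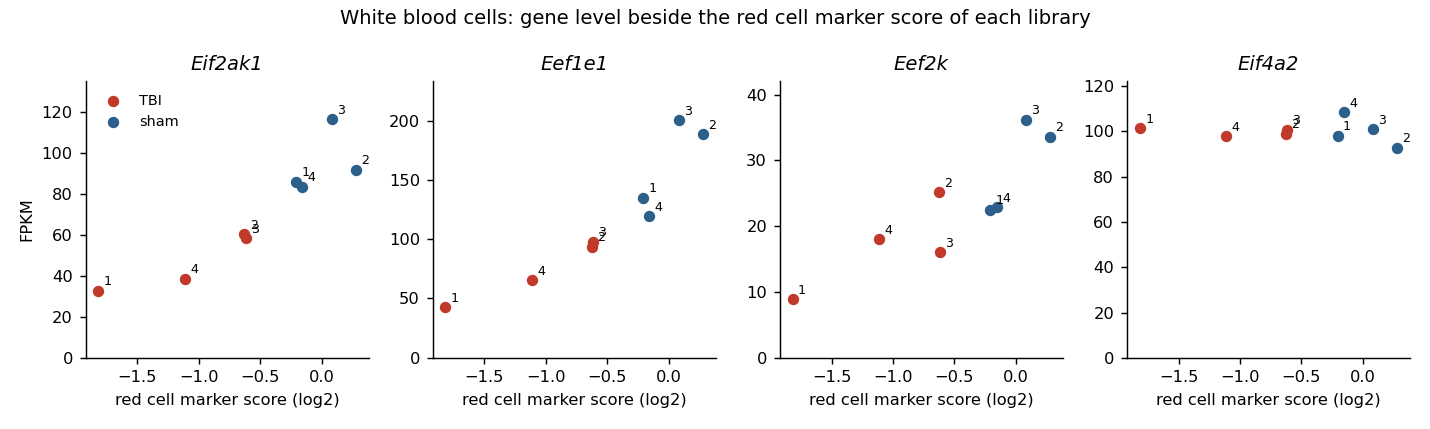
FPKM of Eif2ak1, Eef1e1, Eef2k and Eif4a2 (vertical axes) against the red cell marker score (horizontal axis, mean log2 distance from the sham average over 12 markers) in the 8 WBC libraries, with library numbers. For Eif2ak1 and Eef1e1 the TBI libraries lie low on both axes, with TBI 1 at a score of -1.82, while Eif4a2 is not ordered by the score.

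CA1, TBI against sham: whether translation factors in the hippocampus differ 1 week after injury. No translation factor passed, and the 56 tested split evenly, 28 higher and 28 lower. The differences ran from -0.17 (Eif4g3) to 0.18 (Eif2c2), with a median of -1.19e-05, against -0.0090 over all 14637 rows. At an unadjusted limma p under 0.05 there were 0 members in either direction, where all rows gave 2.54% higher, 2.6% lower and 5.14% either way. Of all rows, 46.7% were higher in the mean. The groups did not overlap in 1 member, Eif2a (lower), or 1.79% of the 56, against 1.6% of all rows lower, 1.28% higher and 2.88% either way. At the adjusted threshold 1 row, 0.00683% of all, passed. Without sham 1 the counts at an unadjusted p under 0.05 were 2 higher and 5 lower, without TBI 1 they were 3 higher and 0 lower, and with library weights 4 and 4.

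Among the genes with the smallest p in CA1, Eef1g and Eef1b2, subunits of the exchange factor of eEF1A, and Eif3k and Eif3f of eIF3 were higher in the mean. Eef1g had 64.7, 71.3, 67.6 and 69.7 FPKM in TBI, against 66.5, 56.9, 59.9 and 64.7 FPKM in sham. Eef1b2 had 61.1, 69.9, 58.5 and 62.2 FPKM in TBI, against 60.8, 52.8, 49.1 and 62.2 FPKM in sham. Both were higher in the mean with overlapping groups, by 0.14 ± 0.06 (SE) and 0.17 ± 0.09 (SE) (limma adjusted p = 0.891 for each). Eif3k had 87.9, 105, 104 and 107 FPKM in TBI, against 89.3, 85.4, 90.2 and 98.1 FPKM in sham, where TBI 1 lay apart from the other 3 TBI libraries. Eif3f had 99.6, 105, 98.3 and 106 FPKM in TBI, against 98.98, 87.4, 93.6 and 102 FPKM in sham. These 2 subunits differed by 0.15 ± 0.08 (SE) and 0.10 ± 0.06 (SE) (limma adjusted p = 0.891 for each), and the groups overlapped. The other eIF3 subunits ran from -0.07 (Eif3j) to 0.07 (Eif3i). The start codon factors Eif1 and Eif1b had 134, 167, 155 and 161 FPKM in TBI, against 138, 131, 140.1 and 155 FPKM in sham, and 144, 140.0, 137 and 140.2 FPKM in TBI, against 135, 134, 122 and 138 FPKM in sham, with overlapping groups, differences of 0.13 and 0.09 and 95% intervals of -0.07 to 0.32 and -0.03 to 0.21.

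Others with a small p were lower in the mean, among them the initiation genes Eif2a, Eif5 and Eif1ax. Eif2a had 15.6, 15.6, 15.8 and 15.1 FPKM in TBI, against 16.9, 17.5, 15.8 and 16.5 FPKM in sham, so that the highest TBI library lay just under the lowest sham library (-0.10 ± 0.05 (SE), limma adjusted p = 0.891). Eif5 had 31.1, 32.6, 32.3 and 31.5 FPKM in TBI, against 34.7, 34.7, 31.9 and 35.5 FPKM in sham, with TBI 1 and TBI 4 below every sham library (-0.10). Eif4g3, a scaffold of eIF4F, had 35.7, 37.8, 39.2 and 34.0 FPKM in TBI, against 36.5, 47.7, 43.4 and 38.8 FPKM in sham, and the difference of -0.17 came with a wide spread in sham. Eif1ax, a scanning factor, had 42.5, 45.8, 45.0 and 42.1 FPKM in TBI, against 41.2, 50.04, 51.6 and 47.6 FPKM in sham (-0.11). Eif2c2 (Ago2) was the gene with the highest difference, at 6.64, 6.88, 5.83 and 6.61 FPKM in TBI, against 6.71, 5.30, 5.13 and 5.602 FPKM in sham (0.18, limma adjusted p = 0.891). It lay in the direction opposite to that in WBC, with overlapping groups in CA1.

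All 4 eIF2 kinases were lower in the mean in CA1, with differences of -0.11 (Eif2ak3) to -0.07 (Eif2ak2) and overlapping groups. Eif2ak1 had 20.4, 20.03, 21.5 and 21.7 FPKM in TBI, against 20.02, 22.3, 25.4 and 22.1 FPKM in sham. Eif2ak2 had 5.64, 6.93, 6.23 and 6.42 FPKM in TBI, against 6.13, 7.07, 6.43 and 6.94 FPKM in sham. Eif2ak3 had 6.86, 6.76, 6.93 and 7.09 FPKM in TBI, against 6.65, 8.20, 8.07 and 7.10 FPKM in sham, where the TBI libraries lay within the range of sham. Eif2ak4 had 2.98, 2.72, 2.94 and 2.85 FPKM in TBI, against 2.73, 3.37, 3.24 and 3.10 FPKM in sham, also with overlapping groups. Their target Eif2s1 had 23.1, 27.5, 25.7 and 26.5 FPKM in TBI, against 23.9, 26.2, 26.6 and 29.2 FPKM in sham, with a 95% interval of -0.22 to 0.13 for the log2 difference. For Eif2ak1 that interval was -0.27 to 0.07, for Eif2ak2 -0.25 to 0.11, for Eif2ak3 -0.28 to 0.07 and for Eif2ak4 -0.28 to 0.09 (limma adjusted p = 0.891 to 0.940 over the 5 genes). Markers of several cell types of CA1 were lower in the mean too: all 6 of excitatory neurons (median -0.19), all 4 of astrocytes (-0.19) and all 4 of endothelium (-0.24). Their sums overlapped between the groups, at 950.4 to 998 FPKM in TBI and 971 to 1287 FPKM in sham for astrocytes, and 66.6 to 79.5 FPKM in TBI and 66.2 to 118 FPKM in sham for endothelium. Markers of other types were mixed. Of 4 oligodendrocyte markers 3 were higher and 1 lower (median 0.15), and of 5 monocyte markers 3 were higher and 2 lower. Inhibitory neurons had 2 higher and 3 lower, and microglia 1 higher and 3 lower. The 5 choroid plexus markers varied widely between libraries, with scores of -0.45 to 1.74 in TBI and -1.90 to 1.39 in sham. They summed to 178 to 2728 FPKM in TBI and 18.4 to 1304 FPKM in sham. In the mean these sums were mostly Ttr, at 963 FPKM in TBI and 533 FPKM in sham. The part of these cell types in the levels of the kinases and the other factors was not tested.

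For the core elongation factors, the eIF4A helicases and Eif5a in CA1, the 95% intervals of the difference included 0. Eef1a2 had 453, 459, 456 and 438 FPKM in TBI, against 488, 440.3, 472 and 443 FPKM in sham. Eef1a1 had 107, 118, 109 and 112 FPKM in TBI, against 99.2, 114, 114 and 119.9 FPKM in sham. Eef2 had 379.5, 408, 387 and 418 FPKM in TBI, against 402, 381, 399 and 414 FPKM in sham. The groups overlapped in these 3 genes, and those intervals on the log2 scale were -0.16 to 0.11, -0.16 to 0.16 and -0.14 to 0.13 (limma adjusted p = 0.947, 0.996 and 0.994). Eif4a2 had 361, 369, 358 and 343 FPKM in TBI, against 371, 362, 346 and 350.0 FPKM in sham. Eif4a1 had 72.6, 69.5, 73.8 and 70.5 FPKM in TBI, against 64.2, 66.5, 68.6 and 80.3 FPKM in sham. Eif5a had 214, 202, 206 and 225 FPKM in TBI, against 219, 187, 191 and 225 FPKM in sham. Here too the groups overlapped, with intervals of -0.12 to 0.13, -0.13 to 0.21 and -0.13 to 0.22 (limma adjusted p = 0.995, 0.940 and 0.935).

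In CA1 the groups also overlapped for Eif4e, its inhibitors Eif4ebp1 and Eif4ebp2, Eif4b and Eef2k. Eif4e had 26.1, 27.6, 28.7 and 26.5 FPKM in TBI, against 28.8, 27.7, 25.7 and 28.01 FPKM in sham. Eif4ebp1 had 8.15, 7.85, 10.7 and 12.2 FPKM in TBI, against 9.65, 7.23, 9.20 and 11.4 FPKM in sham. Eif4ebp2 had 10.99, 11.1, 10.6 and 9.56 FPKM in TBI, against 8.88, 10.4, 12.9 and 11.5 FPKM in sham. No separation of the groups was seen, and the intervals were -0.14 to 0.11, -0.34 to 0.43 and -0.29 to 0.21. Eif4b had 44.1, 45.6, 49.4 and 45.5 FPKM in TBI, against 42.1, 47.3, 45.7 and 49.0 FPKM in sham, and Eef2k had 6.25, 7.39, 7.28 and 8.37 FPKM in TBI, against 5.63, 6.92, 7.62 and 7.84 FPKM in sham, with intervals of -0.14 to 0.15 and -0.21 to 0.33 (limma adjusted p = 0.940 to 0.992 over the 5 genes). The sign of the difference of Eef1a1, Eef2, Eif4a2, Eif4e, Eef2k, Eif2s1, Eif4b, Eif4ebp1 and Eif4ebp2 in CA1 changed in at least 1 other setting or without 1 library, each from a difference under 0.07 in size.

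**Figure D5:**
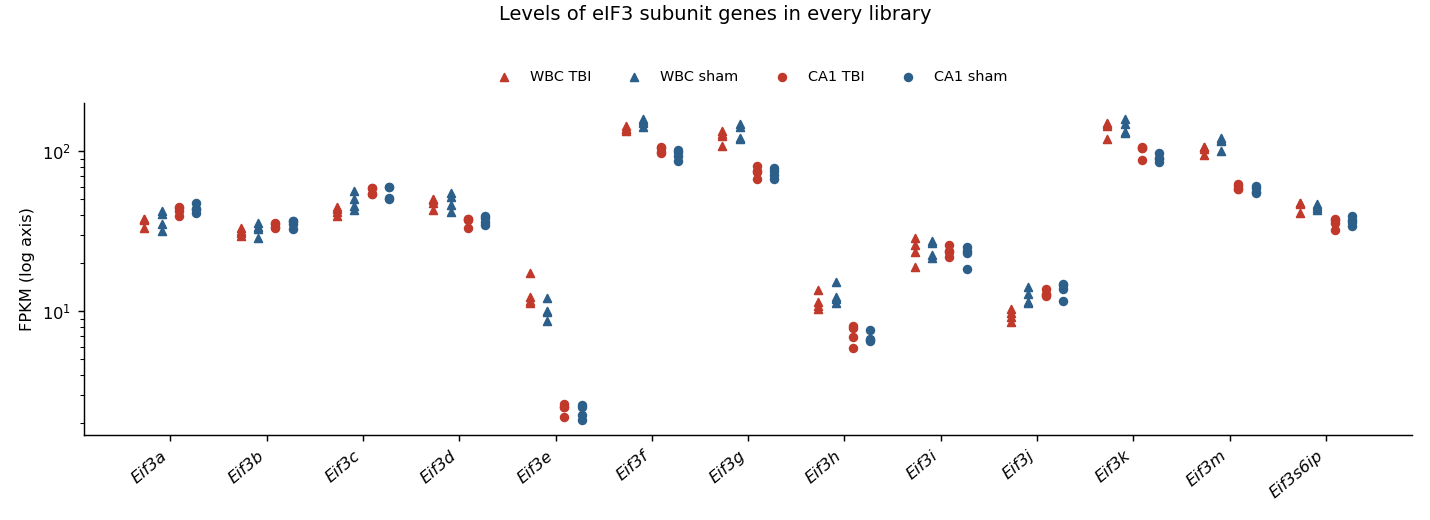
FPKM (log axis) of the 13 eIF3 subunit genes in all 16 libraries, WBC as triangles and CA1 as circles, TBI in red and sham in blue. Levels differ far more between subunits than between TBI and sham, with Eif3e the lowest at 2.47 FPKM in TBI and 2.36 FPKM in sham in CA1.

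The subunits of eIF3 form a single complex, yet their FPKM differed widely. In CA1 they ran from 2.47 ± 0.191 FPKM in TBI and 2.36 ± 0.238 FPKM in sham (SD, n = 4 each) for Eif3e to 102 ± 3.89 FPKM in TBI and 95.5 ± 6.37 FPKM in sham (SD, n = 4 each) for Eif3f, and in WBC Eif3j had 9.46 ± 0.779 FPKM in TBI and 12.4 ± 1.43 FPKM in sham (SD, n = 4 each), Eif3e 13.2 ± 2.80 FPKM in TBI and 10.2 ± 1.40 FPKM in sham (SD, n = 4 each) and Eif3f 139 ± 3.74 FPKM in TBI and 151 ± 6.98 FPKM in sham (SD, n = 4 each). Rows for Eif3i and Eif3k had a second row each of lower level in CA1 (4.92 FPKM in TBI and 5.01 FPKM in sham for Eif3i, 1.68 FPKM in TBI and 1.51 FPKM in sham for Eif3k), which was left aside. Rows that name several genes were also left aside: in CA1 the row of Bloc1s5 and Eef1e1 averaged 43.1 FPKM in TBI and 40.9 FPKM in sham, and the row of Eif4e3 and Foxp1 13.8 FPKM in TBI and 15.5 FPKM in sham.

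WBC against CA1: whether the effect of TBI differed between the tissues. In a single limma model over 7570 genes measured in both, 55 translation factors were included and none passed, where 0.41% of all genes did. At an unadjusted p under 0.05, 10 of the 55 had a lower effect in WBC than in CA1, against 958 of the 7570 genes (12.7%). A higher one was seen in 0 of the 55, against 537 genes (7.09%). In either direction the 10 of 55 were not above the share of all genes, 1495 of 7570 (19.7%). The smallest p was that of Eif2ak1, whose log2 difference was -1.02 in WBC and -0.10 in CA1, an interaction of -0.92 ± 0.23 (SE, limma adjusted p = 0.0749). It passed with a block for equal sample numbers within a tissue (adjusted p = 0.0223), with library weights, without WBC TBI 2 (adjusted p = 0.0273) and without WBC TBI 3 (adjusted p = 0.0282). More genes passed in those fits than the 31 of 7570 with all libraries: 214 with the block, 281 with library weights, 167 of 7568 without WBC TBI 2 and 222 of 7552 without WBC TBI 3. Eif1 gave -0.43 in WBC and 0.13 in CA1 (-0.56 ± 0.17 (SE, limma adjusted p = 0.103)), and passed without WBC TBI 3 (adjusted p = 0.0490). Eif2c2 gave -0.78 and 0.18 (-0.96 ± 0.33 (SE, limma adjusted p = 0.126)), and passed with library weights and without WBC TBI 1, where 94 of 7572 genes passed. Eif4b gave -0.38 in WBC and 0.0043 in CA1 (-0.39 ± 0.14 (SE, limma adjusted p = 0.136)), and Eef2k -0.80 and 0.06 (-0.86 ± 0.34 (SE, limma adjusted p = 0.170)). After quantile normalization the 5 interactions were -0.72 for Eif2ak1, -0.20 for Eif1, -0.76 for Eif2c2, -0.10 for Eif4b and -0.80 for Eef2k.

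Other genes of translation control were described from lists that are not limited to these symbols, and none of them passed. At an unadjusted limma p under 0.05 the 6 lists held 1 gene higher and 9 lower of 53 tested in WBC, or 1.89% and 17.0%, against 7.82% and 12.5% of all rows. In CA1 they held 1 higher and 1 lower of 55, or 1.82% each way, against 2.54% and 2.6% of all rows. Of genes that end translation and recycle ribosomes, 4 of 6 were tested in WBC (2 higher, 2 lower, median -0.07) and 5 in CA1 (2 higher, 3 lower, median -0.04). In WBC Hbs1l, which with Pelo rescues stalled ribosomes, stood at 32.8 ± 4.81 FPKM in TBI and 49.3 ± 3.53 FPKM in sham (log2 -0.59, limma adjusted p = 0.127), and its groups did not overlap. Pelo stood at 5.98 FPKM in TBI and 6.95 FPKM in sham, and the release factor Etf1 at 17.2 FPKM in TBI and 16.4 FPKM in sham. In CA1 Pelo stood at 13.0 FPKM in TBI and 12.1 FPKM in sham, the recycling ATPase Abce1 at 28.1 FPKM in TBI and 30.0 FPKM in sham and Hbs1l at 23.2 FPKM in TBI and 24.7 FPKM in sham.

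Of 15 genes around the poly-A tail and eIF4F, 11 were tested in each tissue, with 3 higher and 8 lower in WBC (7 and 4 after quantile normalization) and 4 higher and 7 lower in CA1. In WBC Mknk1, a kinase of eIF4E, stood at 49.2 ± 12.2 FPKM in TBI and 80.4 ± 6.72 FPKM in sham (log2 -0.74, limma adjusted p = 0.132). The poly-A binding protein Pabpc1 stood at 654 ± 118 FPKM in TBI and 955 ± 102 FPKM in sham (log2 -0.56, limma adjusted p = 0.153), and its inhibitor Paip2 at 156 ± 33.6 FPKM in TBI and 224 ± 40.4 FPKM in sham (log2 -0.54, limma adjusted p = 0.180). The groups of these 3 genes did not overlap. In CA1 Mknk1 stood at 7.44 ± 0.681 FPKM in TBI and 8.71 ± 0.303 FPKM in sham (log2 -0.22, limma adjusted p = 0.891), Paip1 at 29.8 FPKM in TBI and 27.7 FPKM in sham and the helicase Ddx3x at 46.7 FPKM in TBI and 50.01 FPKM in sham, with groups that did not overlap for Ddx3x.

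Of 13 genes of mTORC1 and S6 kinase, 12 were tested in each tissue and split 6 and 6 in both (4 higher and 8 lower in CA1 after quantile normalization). In WBC the mTORC1 inhibitor Tsc1 stood at 8.67 ± 1.64 FPKM in TBI and 12.0 ± 1.81 FPKM in sham (log2 -0.46, limma adjusted p = 0.160), Rps6kb1, which encodes an S6 kinase, at 13.9 FPKM in TBI and 12.1 FPKM in sham, and the mTORC1 subunit Mlst8 at 6.34 FPKM in TBI and 5.66 FPKM in sham, with every TBI library above every sham library for Mlst8. In CA1 Rps6kb2, the other S6 kinase, stood at 5.35 ± 0.140 FPKM in TBI and 4.50 ± 0.204 FPKM in sham (log2 0.23, limma adjusted p = 0.891) with groups that did not overlap, Mtor at 26.8 FPKM in TBI and 24.3 FPKM in sham and Mlst8 at 12.4 FPKM in TBI and 13.4 FPKM in sham. Of 14 genes of the integrated stress response, the programme that eIF2 kinases start, 11 were tested in WBC (2 higher, 9 lower, median -0.14). After quantile normalization these were 3 higher and 8 lower, with a median of -0.04, where the median of all rows was 0.05. In CA1 13 were tested (7 higher, 6 lower, median 0.0071, or 6 higher and 7 lower after quantile normalization). In WBC the phosphatase subunit Ppp1r15a, which reverses eIF2 phosphorylation, stood at 50.5 ± 16.9 FPKM in TBI and 90.6 ± 15.01 FPKM in sham (log2 -0.89, limma adjusted p = 0.142), with groups that did not overlap. Ddit3 stood at 22.7 FPKM in TBI and 30.5 FPKM in sham and Atf4, the transcription factor of this response, at 209 FPKM in TBI and 245 FPKM in sham, and for Atf4 every TBI library lay below every sham library. In CA1 Asns, asparagine synthetase, stood at 36.3 ± 3.32 FPKM in TBI and 41.6 ± 4.25 FPKM in sham (log2 -0.19, limma adjusted p = 0.891), Chac1 at 7.18 FPKM in TBI and 6.43 FPKM in sham and Nck1 at 13.9 FPKM in TBI and 13.1 FPKM in sham.

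Of 9 mitochondrial translation factors, 7 were tested in each tissue, with 3 higher and 4 lower in WBC (4 and 3 after quantile normalization) and 2 higher and 5 lower in CA1. In WBC Tsfm stood at 8.45 ± 0.686 FPKM in TBI and 10.7 ± 2.03 FPKM in sham (log2 -0.30, limma adjusted p = 0.237), Gfm1 at 9.15 FPKM in TBI and 8.09 FPKM in sham and Gfm2 at 3.63 FPKM in TBI and 3.35 FPKM in sham. In CA1 Tufm, the mitochondrial counterpart of eEF1A, stood at 34.8 ± 0.881 FPKM in TBI and 32.7 ± 1.40 FPKM in sham (log2 0.09, limma adjusted p = 0.891), Gfm2 at 5.51 FPKM in TBI and 6.27 FPKM in sham and Mtif2 at 7.11 FPKM in TBI and 7.64 FPKM in sham. Of 12 genes that modify elongation factors or serve special codons, 9 were tested in WBC (6 higher, 3 lower) and 8 in CA1 (5 higher, 3 lower). Eefsec, which delivers selenocysteine, stood at 7.61 ± 1.63 FPKM in TBI and 13.9 ± 3.17 FPKM in sham (log2 -0.82, limma adjusted p = 0.132) in WBC, with groups that did not overlap, and Dph3 and Dph5, of diphthamide synthesis on eEF2, at 6.51 FPKM in TBI and 7.46 FPKM in sham and at 14.4 FPKM in TBI and 12.7 FPKM in sham. In CA1 Dhps, the first enzyme of hypusine synthesis on eIF5A, stood at 33.7 ± 1.13 FPKM in TBI and 31.2 ± 0.864 FPKM in sham (log2 0.11, limma adjusted p = 0.891) with every TBI library above every sham library, Dph2 at 4.82 FPKM in TBI and 5.58 FPKM in sham and Eefsec at 39.6 FPKM in TBI and 38.7 FPKM in sham.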

How the data were processed

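The authors deposited FPKM values per gene, in 1 table per tissue, each with a status (OK, FAIL or HIDATA). TopHat, TopHat2, Bowtie, Bowtie2, Cufflinks and Cuffdiff with rat build rn5 were used, per the submitters' processing notes; versions, annotation and library scaling: not given in the sources used here. Uncertain assignment of fragments between paralogues and pseudogenes can affect the values. The 16 samples were grouped by their titles.

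From the FPKM, log2 (FPKM + 0.5) was computed for rows with a mean of at least 1 FPKM and OK status in all 8 libraries (14637 in CA1, 13413 in WBC). TBI was compared with sham within a tissue, and the effect between tissues by an interaction term, with limma 3.58.1 (eBayes with trend, 2-sided) and Benjamini-Hochberg adjustment over all rows, at 0.05. The tests were tried on simulated data. The members and lists were chosen with earlier results of these data known, so their counts are descriptions. Full values are given for the 10 members with the smallest p per tissue, 5 for the interaction and 16 chosen by role. Of these, Eif4g1 had no row under its symbol. For each other list the 3 smallest p are named. Alternatives were other pseudocounts (0.1, 1), filters (none, 5 FPKM), scalings, variance models, status, a replicate block and leaving out each library. Software was R 4.3.3 and Python 3.11.15.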

Additional observations from a re-analysis of the deposited data

Results flagged for a closer look

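In groups of 4 libraries, a library was marked where its gap to the nearest other library was over Dixon's critical share of the group's range. Of 98 groups tested 3 were marked, and chance marks about 1 in 20. In WBC TBI 1 had 550.3 FPKM of Eef2, against 675 to 696 FPKM in the other 3 TBI libraries, and 35.0005 FPKM of Eif4ebp1, against 41.9 to 42.9 FPKM. In CA1 TBI 1 had 87.9 FPKM of Eif3k, against 104 to 107 FPKM in the other 3 TBI libraries. The cause was not tested.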

How the results depend on the processing

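Of 53 results for single genes, 38 kept their sign under all 10 other settings and without each library in turn, and 3 passed in at least 1 of these. In CA1, where 0 members were past an unadjusted p of 0.05, 1 was higher with no filter, 4 were higher and 4 lower with library weights, and 1 was lower with a replicate block. In WBC, with 1 higher and 11 lower, 0 were higher with no filter, median-ratio scaling or no trend, and quantile normalization gave 7 higher, 5 lower and a member median of 0.067. For the interaction, with 0 passing, 0 higher and 10 lower, quantile normalization gave 5 higher and 4 lower, library weights 2 passing and 1 higher, and the replicate block 1 passing.

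Signs changed in CA1 with median-ratio scaling for Eef1a1 (0.0058) and Eef2 (0.0043), with quantile normalization for Eif4a2 (-0.039) and with library weights for Eef2 (0.0011) and Eif4e (0.030). In WBC they changed with quantile normalization for Eef1a1 (0.091), Eef2 (0.32), Eif2ak3 (0.019), Eif4a2 (0.26), Eif4ebp2 (0.042) and Eif5a (0.18). The cause was not tested.

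Without each library in turn, members past an unadjusted p of 0.05 in CA1 ran from 0 to 3 higher and 0 to 5 lower, and in WBC from 0 to 1 higher and 7 to 12 lower, with medians of -0.02 to 0.0083 and -0.15 to -0.07. For the interaction 0 to 2 passed, 0 to 1 were higher and 6 to 13 lower. Single genes ran in CA1 from -0.058 to 0.032 (Eef1a1), -0.027 to 0.019 (Eef2), -0.031 to 0.13 (Eef2k), -0.089 to 0.0074 (Eif2s1), -0.014 to 0.022 (Eif4a2), -0.037 to 0.035 (Eif4b), -0.049 to 0.0050 (Eif4e), -0.070 to 0.14 (Eif4ebp1) and -0.13 to 0.043 (Eif4ebp2), and in WBC from -0.10 to 0.025 (Eif2ak3) and -0.039 to 0.036 (Eif4a2). With a minimum mean of 5 FPKM, Eif2ak4 in CA1 was not tested.

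Pairing by equal sample numbers was checked within a tissue: deviations of TBI and sham libraries of the same number correlated at 0.02 to 0.24 in CA1 and -0.0082 to 0.15 in WBC, and 2 of 4 (CA1) and 1 of 4 (WBC) TBI libraries correlated best with their own number. Not every pair was over 0.1, so the unpaired fits were kept; equal numbers in the 2 tissues were not compared. With the replicate block the interaction of Eif2ak1 was -0.92 (limma adjusted p = 0.0223), in a fit where 214 of 7570 genes passed. FPKM carry no depth, so no counting error can be given, and 4 libraries a group limit the precision.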
